A study of Mus musculus with 12 samples.

Results

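Sodium-pump beta subunits and pH-regulating transporters were examined in mouse CD8+ T cells before and after activation, with and without sodium lactate. The 5 genes were Atp1b1, Atp1b3, Slc4a7, Slc4a2 and Slc12a2, taken by symbol from a table of 13780 genes, and 1 row matched each symbol. All 5 passed the filter on low counts that 13767 genes passed. RNA-seq was done on 12 libraries in 3 groups of 4. Naïve cells were untreated and frozen straight after isolation. The other cells were activated for 72 h by dynabeads carrying anti-CD3/CD28, with IL-2 at 10 U/ml, in plain media (the media group) or with 40 mM sodium lactate (the lactate group). All cells were purified from the spleens of wild-type C57BL/6J mice aged 8 to 12 weeks by positive magnetic selection for CD8, and the activated cells were cultured ex vivo. Plain media, without an equimolar amount of sodium chloride, served as the RNA-seq control, so that sodium and osmolality differed between the activated groups together with lactate, and their parts in a difference cannot be told apart.

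The sodium pump, Na,K-ATPase, exports sodium and imports potassium at the expense of ATP. Its catalytic alpha subunit needs a beta subunit to fold and to reach the plasma membrane, and Atp1b1 and Atp1b3 encode the beta1 and beta3 forms. The sodium gradient that the pump makes drives secondary transporters. Slc4a7 encodes NBCn1, which carries sodium and bicarbonate into the cell and so raises intracellular pH. Slc4a2 encodes AE2, an exchanger of chloride for bicarbonate that removes base from the cell. Slc12a2 encodes NKCC1, which brings in sodium, potassium and chloride and takes part in the recovery of cell volume. In activated T cells, which export lactate with protons, transporters of this kind set the pH of the cytosol.

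The sequences just upstream of the beta subunit genes are shown because the levels of both genes fell after activation. Each is the run of 250 bases before the start of the gene in RefSeq (GRCm38.p6), at chr1:164458356-164458605 for Atp1b1 and chr9:96364432-96364681 for Atp1b3, both on the minus strand. Capitals mark the GC box, GGGCGG or its reverse complement CCGCCC.
Atp1b1: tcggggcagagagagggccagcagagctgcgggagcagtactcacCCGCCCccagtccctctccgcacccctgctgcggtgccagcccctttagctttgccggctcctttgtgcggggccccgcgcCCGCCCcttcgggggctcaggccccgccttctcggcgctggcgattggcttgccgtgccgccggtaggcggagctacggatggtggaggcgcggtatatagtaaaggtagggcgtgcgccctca
Atp1b3: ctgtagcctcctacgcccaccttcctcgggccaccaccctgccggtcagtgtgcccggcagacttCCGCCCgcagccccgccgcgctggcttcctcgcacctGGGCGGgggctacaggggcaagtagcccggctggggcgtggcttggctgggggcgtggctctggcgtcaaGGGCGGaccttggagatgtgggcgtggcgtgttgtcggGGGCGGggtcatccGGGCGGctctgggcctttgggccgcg
The Atp1b1 window held 2 GC boxes and the Atp1b3 window, taken at the more upstream of 2 starts, held 5. Of 32851 such windows in the mouse genome, 32.7% held at least 1 GC box. The GC content was 70.4% for Atp1b1 and 73.6% for Atp1b3, against a median of 52.4% over all windows. The table's windows for Slc4a2 (the first of 2 starts, GC content 69.2%) and Slc4a7 (43.6%) precede RefSeq starts that lie inside these genes as GENCODE bounds them, and held no GC box on either strand. Slc12a2 had no entry. Of the other motifs searched on both strands, CCAAT (in 33.8% of all windows) occurred 1 time in the Atp1b1 window and 1 time in the Slc4a7 window, TATAAA (12.4% of windows) occurred 1 time in the Slc4a7 window, and CACGTG (6.02%) and TGACGTCA (1.55%) occurred in none of these 4 windows. None of the motifs searched contains another, and a match is a description of the letters in the window.

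In the GRCm38 build, Atp1b1 (ENSMUSG00000026576) lies at chr1:164437109-164458355 on the minus strand, Atp1b3 (ENSMUSG00000032412) at chr9:96332655-96364442 on the minus strand and Slc4a7 (ENSMUSG00000021733) at chr14:14702279-14799940 on the plus strand. Slc4a2 (ENSMUSG00000028962) lies at chr5:24423837-24440950 and Slc12a2 (ENSMUSG00000024597) at chr18:57878678-57946821, both on the plus strand. All 5 are protein-coding genes, and their values are sums over exons. Of the Atp1b1 exons 18.7% overlapped Nme7 on the opposite strand, and of the Slc4a2 exons 13.7% overlapped Fastk on the opposite strand. Whether strand was used in counting is not given in the sources used here, so that reads from these overlaps may not be separated.

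Total counts per library ranged from 14726904 to 21478137, and each member had between 316 and 12885 counts in every library. Markers of CD8+ T cells were present throughout, with a summed level of 1991 to 4036 CPM in naïve, 3095 to 3879 CPM in media and 2303 to 2901 CPM in lactate libraries. CPM are counts scaled to a common library size, here with TMM factors. The naïve libraries also held RNA of other spleen cells. The 7 B cell markers summed to 611 to 1478 CPM in naïve libraries, 12.0 to 20.3 CPM in media and 6.46 to 8.12 CPM in lactate. The 10 myeloid and dendritic cell markers summed to 568 to 1662 CPM in naïve libraries, 12.0 to 19.0 CPM in media and 5.38 to 10.6 CPM in lactate, with S100a8, Xcr1 and Siglech at 0 in every activated library. The 7 red cell markers, of which 6 passed the filter, summed to 98.2 to 4300 CPM in naïve libraries and at most 1.90 CPM after activation, with Slc4a1 at 0 in every activated library. The 4 markers of CD4+ T and NK cells summed to 15.2 to 37.1 CPM in naïve libraries and at most 1.77 CPM in activated ones. These markers moved with activation, and their part in the differences between naïve and activated cells was not tested. In bulk RNA, fewer cells of a type and less RNA per cell cannot be told apart.

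**Figure D1:**
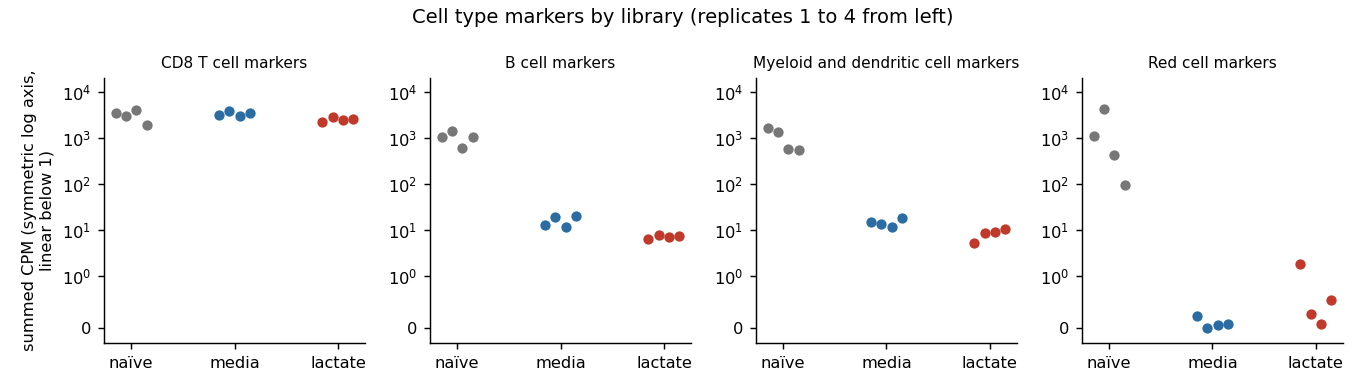
Summed CPM of 4 marker lists (vertical axis, logarithmic above 1 and linear below it) in each library of the naïve, media and lactate groups, with replicates 1 to 4 from left to right. CD8+ T cell markers stay between 1991 and 4036 CPM, while B cell, myeloid and red cell markers are high in the naïve libraries and at most 20.3 CPM after activation.

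Library numbers in the labels fell into a low run and a high run. The low run held 3 naïve, 3 media and 2 lactate libraries, and the high run held naïve replicate 4, media replicate 4 and lactate replicates 3 and 4. The label of a library also gives a donor tag for activated cells, and for 3 donors there is a library of each condition: media 1 with lactate 1, media 3 with lactate 2, and media 4 with lactate 4. The other media and lactate libraries came from 1 donor each. Nothing ties the naïve libraries to these donors. The comparison of plain media with naïve cells bears on activation, that of lactate with media on sodium lactate during activation, and that of lactate with naïve cells on both together. These comparisons share libraries, and their values are given side by side.

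Atp1b1, Atp1b3, Slc4a2 and Slc12a2 were lower in cells activated in media than in naïve cells, and Slc4a7 did not pass the test. By the quasi-likelihood test of edgeR at an adjusted p of at most 0.01, 4 of 5 members were lower and 0 higher in media, where 29% of all genes tested were lower, 28.5% higher and 57.5% called in either direction. These 4 members had no overlap between media and naïve samples, all in the lower direction, against 30.5% of all genes lower, 30.7% higher and 61.2% in either direction. In lactate against naïve cells, 3 of 5 members (Atp1b1, Atp1b3 and Slc4a2) were lower and 0 higher, against 32% of all genes lower, 33% higher and 65% called in either direction. These 3 also did not overlap, which held for 32.8% of all genes in that direction, 35% in the higher direction and 67.8% in either.

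**Figure D2:**
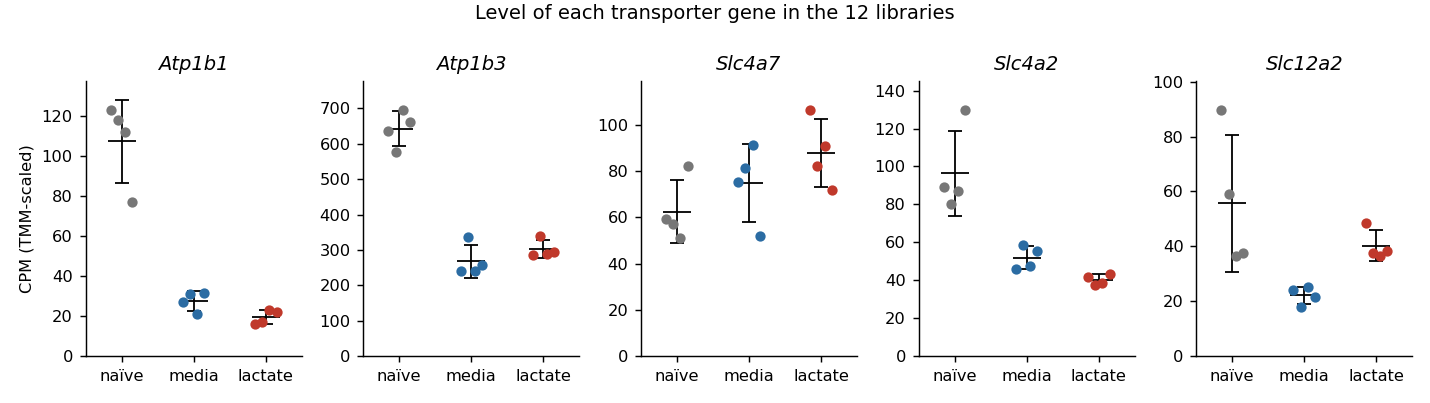
Level of each member (vertical axis, CPM scaled by TMM, from 0) in the 4 naïve, 4 media and 4 lactate libraries, with replicates from left to right; points are libraries and bars are mean ± SD. Atp1b1, Atp1b3 and Slc4a2 are lower in all 8 activated libraries than in any naïve library, and Slc12a2 is higher in each lactate library than in any media library.

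Atp1b1 had the largest fall of the 5 members after activation. Its level was 122.7, 117.9, 112.2 and 77.0 CPM in naïve replicates 1 to 4, 26.7, 30.8, 20.8 and 31.3 CPM in media, and 16.2, 16.7, 23.0 and 21.8 CPM in lactate. All activated libraries lay below all naïve ones, and the media and lactate libraries overlapped. Means were 107 ± 20.8, 27.4 ± 4.84 and 19.4 ± 3.48 CPM (SD, n = 4). Atp1b1 was thus 3.92-fold lower in media than in naïve cells (log2 fold change -1.97, SE 0.18, adjusted p = 1.22e-06, edgeR) and 5.53-fold lower in lactate (-2.47, SE 0.19, adjusted p = 1.55e-07). Lactate against media gave -0.50 (SE 0.18, adjusted p = 0.0441), which missed the threshold of 0.01. Naïve replicate 4, of the high run of library numbers, had the lowest naïve level. Within the high run the log2 difference of media from naïve was -1.29, against -2.18 within the low one, and that of lactate from media was -0.48 against -0.65.

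Atp1b3 encodes the more abundant beta subunit here. It was at 636.1, 577.2, 694.3 and 661.6 CPM in naïve cells, 239.3, 336.4, 239.1 and 257.4 CPM in media, and 286.6, 340.0, 289.3 and 295.1 CPM in lactate. The naïve libraries stood clear of all activated ones, and media replicate 2 lay among the lactate libraries while the other media libraries lay below them. The means were 642 ± 49.5 CPM in naïve, 268 ± 46.4 CPM in media and 303 ± 25.1 CPM in lactate (SD, n = 4). The fall was 2.40-fold in media (log2 fold change -1.26, SE 0.12, adjusted p = 1.55e-06, edgeR) and 2.12-fold in lactate (-1.09, SE 0.12, adjusted p = 3.93e-06). Lactate against media gave 0.18 (SE 0.12, adjusted p = 0.265) and was not called. Media replicate 2 weighed on this value, which was 0.30 without it (adjusted p = 0.0336). With the donor as a block it was 0.32 (adjusted p = 0.0712) in the 12-library fit and 0.33 (adjusted p = 0.026) on the activated libraries alone, and lactate exceeded media in all 3 donors, with 286.6 CPM against 239.3, 340.0 against 239.1 and 295.1 against 257.4. The low and high runs of library numbers gave similar differences, with media against naïve at -1.24 and -1.36, and lactate against media at 0.22 and 0.18.

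Slc4a2, the chloride-bicarbonate exchanger, was at 89.3, 80.0, 86.9 and 129.5 CPM in naïve cells, 45.9, 58.7, 47.4 and 55.1 CPM in media, and 41.7, 37.4, 38.4 and 43.4 CPM in lactate. The 3 groups did not overlap, and every library of the lactate group lay below every library of the media group. The group means were 96.4 ± 22.4, 51.8 ± 6.12 and 40.2 ± 2.80 CPM (SD, n = 4). Slc4a2 was 1.86-fold lower in media than in naïve cells (log2 fold change -0.90, SE 0.15, adjusted p = 0.000136, edgeR) and 2.40-fold lower in lactate (-1.26, SE 0.15, adjusted p = 6.28e-06). For lactate against media, the log2 fold change of -0.36 (SE 0.15) had an adjusted p of 0.0651 in edgeR. An exact two-sided permutation test gave an unadjusted p of 0.0286, the smallest that 4 against 4 samples allow. Naïve replicate 4 was again apart, here as the highest naïve library, and media differed from naïve by -0.76 within the low run and by -1.23 within the high one. Without that library the edgeR fit called Slc4a2 lower in lactate than in media (adjusted p = 0.00689, range 0.00689 to 0.333 over 25 alternatives).

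Slc12a2, the sodium-potassium-chloride importer, had its lowest level in media. Naïve libraries were at 89.6, 59.2, 36.4 and 37.5 CPM, media libraries at 24.1, 17.8, 25.0 and 21.4 CPM, and lactate libraries at 48.5, 37.5, 36.4 and 38.2 CPM. All lactate and all naïve libraries lay above all media libraries, while lactate and naïve libraries overlapped. Means were 55.7 ± 24.9 CPM in naïve, 22.1 ± 3.25 CPM in media and 40.1 ± 5.65 CPM in lactate (SD, n = 4). Slc12a2 was 2.52-fold lower in media than in naïve cells (log2 fold change -1.33, SE 0.26, adjusted p = 0.000502, edgeR). The lactate level was 1.82 times that in media (log2 fold change 0.86, SE 0.25), with an adjusted p of 0.0172 that missed the threshold, and an unadjusted p of 0.0286 in the exact permutation test. In the 3 donors with both libraries, lactate was higher than media in each. The difference was 0.95 within the low run and 0.80 within the high run.

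The naïve libraries had much the larger spread for Slc12a2, and they bear on its test through the shared estimate of variance. The naïve replicates 1 and 2, with 89.6 and 59.2 CPM of Slc12a2, also had the highest sums of myeloid and dendritic cell markers, 1662 and 1377 CPM, against 574 and 568 CPM in replicates 3 and 4. Whether these cells carried the Slc12a2 RNA was not tested. When those 2 libraries were left out, a choice made after the values were seen, Slc12a2 was called higher in lactate against media (adjusted p = 0.000892, log2 fold change 0.87), and lactate against naïve moved from -0.47 (adjusted p = 0.106) to 0.060 (adjusted p = 0.774). Media against naïve kept its direction and its call. With the media and lactate groups fitted alone, the adjusted p of Slc12a2 was 0.000665 in edgeR, and it also passed without naïve replicate 1 (0.00313) or naïve replicate 4 (0.00802). Over 25 alternatives it ranged from 0.000665 to 0.132, the latter with the donor as a block in the 12-library fit, and 6 were at or below 0.01.

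Slc4a7, the sodium-bicarbonate importer, was the only member that did not pass in any of the 3 comparisons of the 12-library fit. Its levels were 59.3, 57.4, 51.1 and 82.5 CPM in naïve cells, 75.5, 81.3, 91.3 and 51.9 CPM in media, and 106.4, 82.4, 90.9 and 71.7 CPM in lactate. The ranges of all 3 groups overlapped. Means were 62.6 ± 13.8, 75.0 ± 16.7 and 87.9 ± 14.6 CPM (SD, n = 4). The log2 fold change was 0.26 (SE 0.19, adjusted p = 0.24, edgeR) for media against naïve, 0.49 (SE 0.19, adjusted p = 0.0331) for lactate against naïve and 0.23 (SE 0.19, adjusted p = 0.369) for lactate against media. The first of these depended on the run of library numbers. With the 3 libraries a group of the low run, media exceeded naïve by 0.56, and with the 1 library each of the high run the difference was -0.67. Lactate against naïve was 0.75 in the former and -0.031 in the latter, and without naïve replicate 4 it passed (0.64, adjusted p = 0.00549). Lactate against media was 0.18 and 0.64 by run, and 0.083 without media replicate 4 (adjusted p = 0.746).

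**Figure D3:**
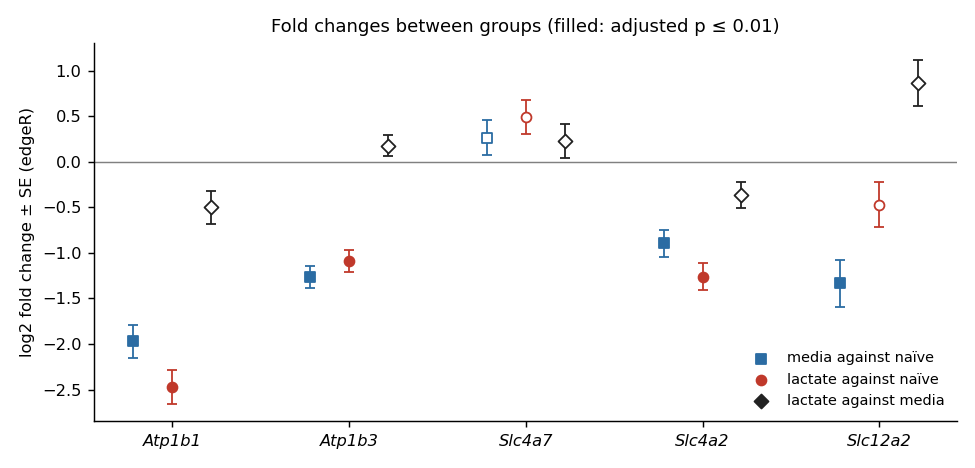
Log2 fold change with its standard error (vertical axis, edgeR) of the 5 members in 3 comparisons, each with 4 libraries per group; filled symbols have an adjusted p of at most 0.01. The black diamonds of the members, lactate against media, run from -0.50 (Atp1b1) to 0.86 (Slc12a2) and are all open, while the media against naïve symbols are filled for 4 of the 5.

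Sodium lactate therefore gave 0 of 5 calls among the members in the edgeR quasi-likelihood test on 12 libraries, where 25.1% of all genes tested were called, 13.9% higher and 11.1% lower. At an unadjusted p below 0.05 there were 3 (Atp1b1, Slc4a2 and Slc12a2). DESeq2 called 1, Slc12a2 (adjusted p = 0.00617), and limma voom called 0. Slc12a2 and Slc4a2 were the members whose media and lactate samples did not overlap, 1 higher and 1 lower of 5, against 23.2% of all genes higher, 21.5% lower and 44.7% in either direction. With the donor as a block, the 8 activated libraries were also fitted alone, an alternative chosen after the data were seen. Slc12a2 (adjusted p = 0.00125) and Atp1b1 (adjusted p = 0.00927) were called there in edgeR. These are 2 of 5 members, where that fit called 29.3% of all genes tested.

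Within each library the beta subunit transcripts were compared per length, in TPM. Atp1b3 was the more abundant in every group, with means of 919 TPM in naïve, 389 TPM in media and 400 TPM in lactate. Atp1b1 had 119, 30.8 and 19.8 TPM. The share of Atp1b3 in the sum of both was 87.0%, 86.3%, 88.9% and 91.7% in naïve libraries, 92.0%, 93.4%, 93.7% and 91.4% in media and 95.8%, 96.3%, 94.2% and 94.6% in lactate. Every lactate library had a higher share than every media library, and naïve replicate 4 lay within the media range. The means were 88.5% ± 2.42, 92.6% ± 1.09 and 95.2% ± 1.00 (SD, n = 4), and lactate exceeded media by 2.61 percentage points (exact two-sided permutation test, p = 0.0286, 0.0857 after Benjamini-Hochberg adjustment over the 3 ratios tested). In the 3 donors with both libraries the rise was 3.77, 2.66 and 3.20 points.

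The bicarbonate transporters of opposite direction were compared in the same way. The log2 ratio of Slc4a7 to Slc4a2 TPM averaged -1.49 ± 0.12 in naïve cells, -0.36 ± 0.44 in media and 0.25 ± 0.27 in lactate (SD, n = 4). In all 8 activated libraries it was above all naïve libraries, so that the ratio of importer to exporter RNA rose with activation. In media against naïve cells the exporter Slc4a2 fell (log2 fold change -0.90, adjusted p = 0.000136, edgeR), while the importer Slc4a7 did not pass (0.26, adjusted p = 0.24). Media and lactate libraries overlapped, and their difference of 0.60 had p = 0.0571 in the exact permutation test (0.0857 adjusted over 3 ratios). It was positive in all 3 donors, at 0.63, 0.20 and 0.81.

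**Figure D4:**
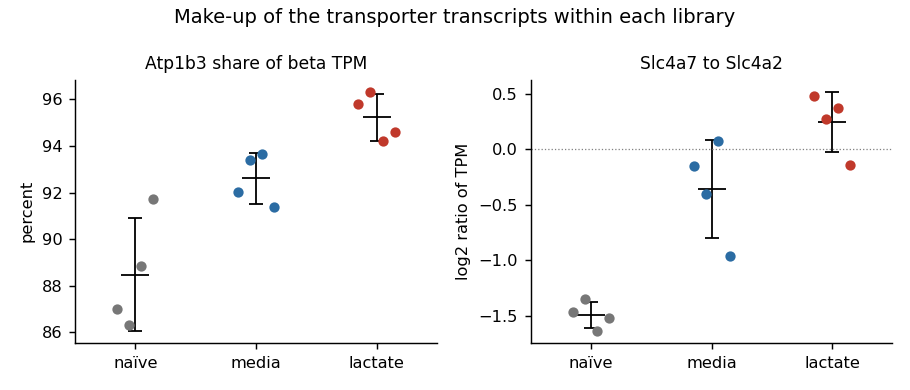
Share of Atp1b3 in the TPM of both beta subunits (left, percent) and log2 ratio of Slc4a7 to Slc4a2 TPM (right) in the 12 libraries; points are libraries, bars are mean ± SD, and the vertical axes do not start at 0. The Atp1b3 share runs from 86.3% to 91.7% in naïve, from 91.4% to 93.7% in media and from 94.2% to 96.3% in lactate libraries.

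The order of the levels per length differed between the groups. In naïve cells Atp1b3 (919 TPM) led Atp1b1 (119 TPM), Slc4a2 (39.8 TPM), Slc12a2 (17.3 TPM) and Slc4a7 (14.1 TPM), and of these neighbours only Slc12a2 and Slc4a7 had overlapping ranges. In media Slc12a2 was last with 7.01 TPM, clear of Slc4a7 with 17.2 TPM. The neighbours Atp1b1 (30.8 TPM) and Slc4a2 (21.5 TPM), and Slc4a2 and Slc4a7, overlapped there, and Atp1b3 (389 TPM) stood clear of all. In lactate Slc4a7 (18.3 TPM) came after Atp1b1 (19.8 TPM) and before Slc4a2 (15.3 TPM) and Slc12a2 (11.6 TPM), each overlapping its neighbour, and Atp1b3 (400 TPM) again stood clear.

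Among the genes reported here of 8 lists of sodium, proton, bicarbonate and chloride transport, 55 of 91 were tested, the members among them. A few further genes of these lists, some of them called, were left out. The shares given for the lists therefore cover the reported genes only and may differ from those of the whole lists, while the shares over all genes include the genes left out. In lactate against media 3 were higher and 4 lower (12.7%, against 25.1% of all genes), with a median log2 fold change of 0.13 against -0.0016 over all genes. With the donor as a block in the 12-library fit 1 of these 7 calls held, Slc9a3r1. That fit called 1.82% of the list genes, against 7.21% of all genes. The donor block on the activated libraries alone was an alternative chosen after the data were seen. There 5 of the 7 held, and 10 of the 47 list genes then tested were called (21.3%, against 29.3% of all genes). In media against naïve cells, 20 were higher and 22 lower (76.4%, against 57.5% of all genes), with a median of 0.17 against -0.03 over all genes. Without naïve replicates 1 and 2, 27 of the 49 list genes then tested were called (55.1%, against 46.3% of all genes), 26 of them among the 42. The genes lower after activation included Slc4a1, Car1 and Car2, which are abundant in red cells, and red cell markers were highest in naïve replicates 2 and 1 (4300 and 1113 CPM). The part of these cells in the share was not tested.

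**Figure D5:**
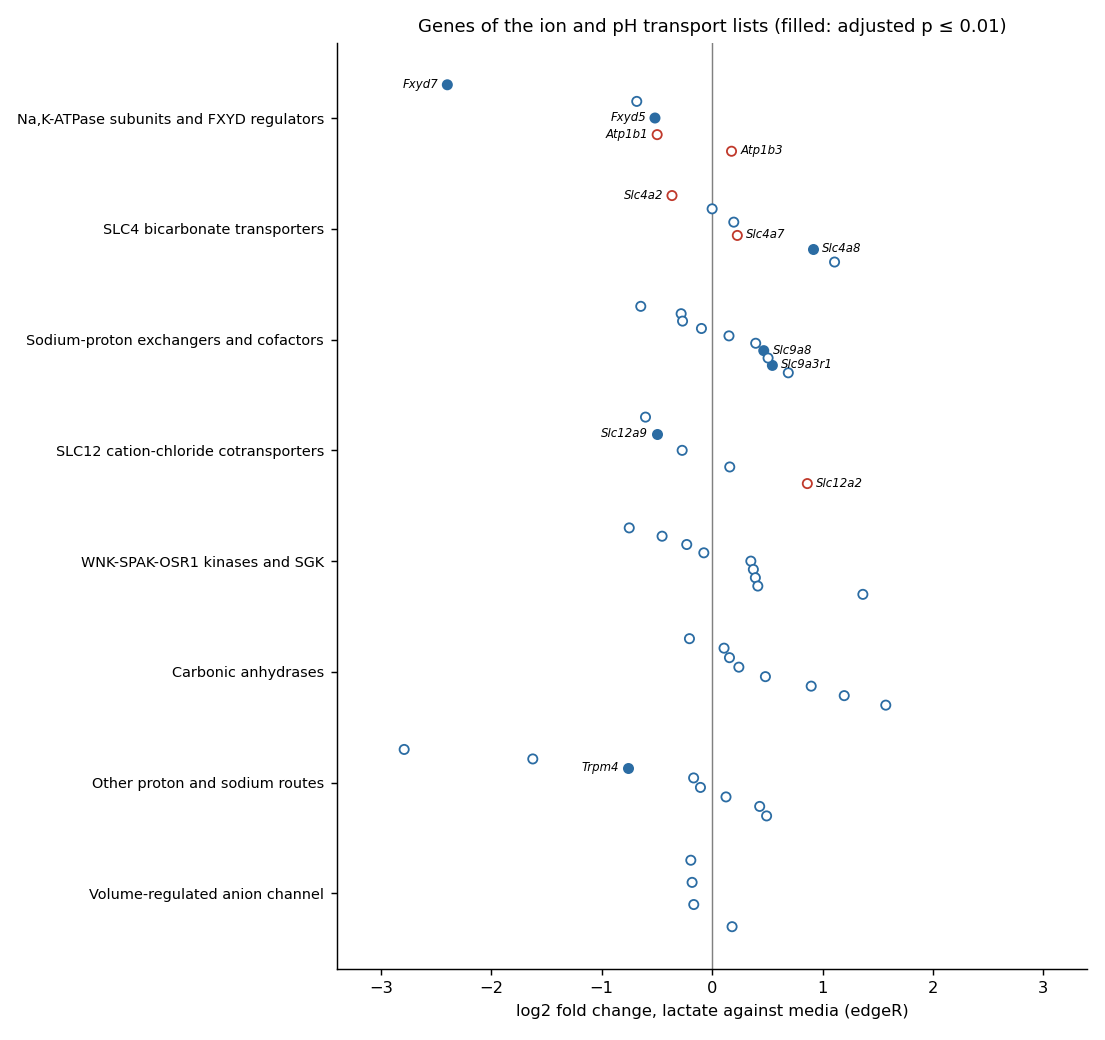
Log2 fold change of lactate against media (horizontal axis, edgeR, 4 libraries per group) of the 55 genes reported of 8 transport lists (rows); red points are the 5 members, blue points other genes, and filled points have an adjusted p of at most 0.01. Here 3 filled points lie to the right of 0 and 4 to the left, and the red points are open.

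Of the Na,K-ATPase subunits and FXYD proteins, small regulators of the pump, 5 of 13 genes were tested, and 2 of the 5 were lower in lactate. The lower genes were Fxyd7 (5.95 to 1.13 CPM, log2 fold change -2.40, adjusted p = 0.00212) and Fxyd5 (615 to 429 CPM, -0.52, adjusted p = 0.00339), both by edgeR. The median of this list was -0.52. With the donor block in the 12-library fit both missed the threshold (-2.34, adjusted p = 0.0236, and -0.50, adjusted p = 0.0306). With the donor block on the activated libraries alone Fxyd7 passed (-2.29, adjusted p = 0.0012) and Fxyd5 did not (adjusted p = 0.0114). Leaving out 1 library ended the call of Fxyd5 for media replicate 2 or lactate replicate 1 (adjusted p of up to 0.0124).

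Of the SLC4 bicarbonate transporters 6 of 10 listed genes were tested. There was 1 call, Slc4a8, a sodium-driven exchanger of chloride for bicarbonate, which rose from 22.7 CPM in media to 42.7 CPM in lactate (log2 fold change 0.91, SE 0.20, adjusted p = 0.00319, edgeR). With the donor block the adjusted p was 0.0631 in the 12-library fit and 0.00154 on the activated libraries alone. When media replicate 2 or 3, or lactate replicate 3 or 4, was left out, the call was lost (adjusted p of up to 0.0135). Of 10 sodium-proton exchangers and cofactors tested, 2 were higher. Slc9a3r1, the scaffold NHERF1, had 116 CPM in media and 169 CPM in lactate (0.55, adjusted p = 0.000358) and was called in all 25 alternatives. Slc9a8, an exchanger of the Golgi, had 45.2 and 62.5 CPM (0.47, adjusted p = 0.00124). With the donor block its adjusted p was 0.0148 in the 12-library fit and 0.0057 on the activated libraries alone.

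Of the SLC12 family 5 of 8 genes were tested, and 1 of the 5 was lower in lactate. Slc12a9 fell from 17.0 to 12.0 CPM (log2 fold change -0.50, adjusted p = 0.00668, edgeR). With the donor block its adjusted p was 0.0716 in the 12-library fit and 0.035 on the activated libraries alone. It was called in 5 of the 12 fits that left out 1 library each, with an adjusted p of up to 0.0228 without media replicate 2. Slc12a7, the exporter KCC4, was named after its values were seen. It was at 604 CPM in naïve, 65.1 CPM in media and 42.9 CPM in lactate cells, a log2 fold change of -3.21 for media against naïve and -0.60 for lactate against media (adjusted p = 0.0143). The importer Slc12a2 had the opposite sign to this exporter in lactate against media, and neither of them passed the threshold. The median of the SLC12 list was -0.27.

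The WNK, SPAK and OSR1 kinases act by phosphorylation on NKCC1 and the potassium-chloride exporters. Of their list, which also holds SGK and genes that encode no kinase (such as Cab39 and Nedd4l), 9 were tested and 0 called in edgeR. There were 3 at an unadjusted p below 0.05 and 1 call each by DESeq2 and limma voom. Stk39, which encodes SPAK, was picked after its values were seen. It rose with activation from 17.2 to 285 CPM (log2 fold change 4.05, adjusted p = 1.31e-07), and lactate against media gave 0.37 (adjusted p = 0.266). All lactate libraries (355 to 391 CPM) lay above all media libraries (239 to 304 CPM) for Stk39. Over 25 alternatives its adjusted p ranged from 0.00488 to 0.642. Of these 2 passed, without naïve replicate 4 and with the 2 groups alone. Of 8 carbonic anhydrases, which interconvert carbon dioxide and bicarbonate, 0 were called in lactate against media, with 2 at an unadjusted p below 0.05. DESeq2 called 1 of the 8, limma voom 0, and the donor block on the activated libraries alone 2. Car12, picked after its values were seen, was at 14.2 CPM in media and 32.5 CPM in lactate (1.20, adjusted p = 0.0268, edgeR). Its adjusted p was 0.00924 in DESeq2. With the donor block it was 0.182 in the 12-library fit and 0.000764 on the activated libraries alone. Of 4 subunits of the volume-regulated anion channel 0 were called, also at an unadjusted p below 0.05 and by DESeq2 or limma voom. Of 8 other proton and sodium routes, 1 was lower, Trpm4, a cation channel opened by calcium (31.1 to 18.3 CPM, -0.76, adjusted p = 0.00297). Its adjusted p with the donor block was 0.0533 in the 12-library fit and 0.00303 on the activated libraries alone, and it lost the call without media replicate 2 or lactate replicate 1, 3 or 4 (adjusted p of up to 0.0115). The monocarboxylate transporter Slc16a3, also picked after its values were seen, rose with activation from 9.82 to 422 CPM, and lactate against media gave -0.11 (adjusted p = 0.41). Slc16a1, another monocarboxylate transporter picked in this way, was at 84.6 CPM in naïve, 159 CPM in media and 224 CPM in lactate cells. Lactate against media gave 0.49 for Slc16a1 (adjusted p = 0.0257, edgeR), which missed the threshold, and 5 of 25 alternatives passed.

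The genes whose log2 CPM followed each member most closely over the 12 libraries are given as a description. For Atp1b1, Atp1b3 and Slc4a2 all activated libraries lay below all naïve ones, and this difference weighs on their correlations. Slc4a7 overlapped between all 3 groups, and Slc12a2 between naïve and lactate libraries. The closest genes were taken from the 10308 compared. For Atp1b1 they were Cnr2 (Pearson r 0.993), Btg2 (0.991) and Themis2 (0.987). For Atp1b3 they were Znrf1 (0.980), Zfp707 (0.980) and Irf3 (0.979). Slc4a7 had lower values, with Snx27 (0.925), Larp4b (0.910) and Bnip2 (0.910) as the nearest. Slc4a2 was followed by Ssh2 (0.993), Arhgap31 (0.988) and 4930523C07Rik (0.988), and Slc12a2 by Gpr141 (0.966), Cd82 (0.956) and Cela1 (0.943). Gpr141 had the same order of groups as Slc12a2, with 11.1 CPM in naïve, 2.25 CPM in media and 7.01 CPM in lactate.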

How the data were processed

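Gene expression of mouse CD8+ T cells was measured by RNA-seq, with 4 libraries each of naïve cells, cells activated in media and cells activated with sodium lactate. Per the methods and processing notes, the authors converted base calls with bcl2fastq 2.20.0.422, aligned reads to mm10/GRCm38 with STAR 2.7.5b and counted unique alignments in exons with featureCounts after PCR duplicates had been removed. The deposited table holds raw counts per gene for 13780 genes, not normalized, with a gene length. The filter, at least 1 CPM in 3 libraries, dropped 13 genes.

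Counts were scaled by TMM and fitted in edgeR 4.0.16 (R 4.3.3) by a quasi-likelihood model with 3 groups, no block and all 12 libraries. Tests were two-sided, adjusted by Benjamini-Hochberg over 13767 genes, with a threshold of 0.01. The SE is the log2 fold change over the square root of F. TPM used the lengths of the table. Differences within a run of library numbers are differences of mean log2 CPM (prior count 2). Permutation tests were exact over 70 arrangements. GENCODE M21 gave coordinates and overlaps, and 13765 identifiers matched. On simulated counts (12506 genes, lactate against media), 68 of 100 genes with a log2 fold change of 1 and 100 of 100 with one of 2 were recovered, with 0 false calls. The simulated libraries were independent, with a spread set by the mean level and no effect of donor or library run. Only genes above a minimum level were changed, so these rates may not hold for the data.

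The members and lists were chosen with earlier results of these data known. Named genes are the members, up to 3 called genes per list with the largest change in lactate against media and at least 1 CPM in media or lactate, and 3 genes closest to each member by correlation; others were chosen after their values were seen. A few further genes, some of them called, are not reported here and were left out of the list counts and figures, as was the 1 ratio that needs them. The numbering of donor tags starts anew in each run of library numbers and was read per run. They pair 3 media and 3 lactate libraries, whose deviations from the group means correlated at 0.374, 0.211 and 0.553 across genes. Of the pairs of different donors, 2 were above the lowest of these, at 0.297 (media 2 and lactate 2) and 0.371 (media 4 and lactate 3), each within 1 run of library numbers, and the others ran from -0.441 to 0.0811. The alternatives were DESeq2 1.42.0, limma voom (3.58.1), other scalings, filters and thresholds, the 2 compared groups alone, blocks by donor or title number, a term for the run of library numbers, and leaving out each library. The p-values of the main fit set a group difference against the spread between libraries within a group, pooled over the 3 groups. Neither they nor the permutation tests took account of the donor pairs.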

Additional observations from a re-analysis of the deposited data

Results flagged for a closer look

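In 72 groups of 4 samples, 8 values lay farther from the other samples than Dixon's 95% critical value for the gap over the range allows, where chance gives about 1 in 20 groups. Among the members, Atp1b3 in lactate replicate 2 was at 340 CPM (others 287 to 295), and Slc12a2 in lactate replicate 1 was at 48.5 CPM (others 36.4 to 38.2).

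Media replicate 2 was apart for Slc12a7 at 86.9 CPM (others 56.1 to 59.2) and Stk39 at 239 CPM (others 293 to 304). Single values in other libraries were Fxyd5 in lactate replicate 1 at 360 CPM (others 448 to 456), Slc9a8 in media replicate 1 at 51.6 CPM (others 42.1 to 43.6), Fxyd7 in naïve replicate 4 at 3.81 CPM (others 1.14 to 1.47) and Trpm4 in naïve replicate 4 at 12.1 CPM (others 7.17 to 7.87).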

How the results depend on the processing

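Over the 5 members and 3 comparisons, 377 of 400 alternative values of the log2 fold change kept direction and side of the threshold or stayed within the replicate spread, 12 newly passed, 8 moved and 3 reversed. In lactate against media, 3451 genes were called, 2252 (without media replicate 2) to 4845 when 1 library was left out, 5461 at an adjusted p of 0.05, and 992 with the donor as a replicate block in the 12-library fit, of which 983 were shared. Without naïve replicates 1 and 2, with DESeq2 or with the 2 groups alone, 1 member was called, Slc12a2 (log2 fold change 0.87, 0.83 and 0.87). The donor block on the activated libraries alone called 2, Atp1b1 (-0.52) and Slc12a2 (0.82), as did an adjusted p of 0.05 (-0.50 and 0.86), at which Slc4a7 also passed for lactate against naïve (0.49). Of all genes tested, that donor block called 29.3%, and the fit without naïve replicates 1 and 2 called 27.2%. The block by title number changed no call of a member.

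Leaving out 1 library gave 0 to 2 called members for lactate against media, 4 for media against naïve (7074 to 8357 genes) and 3 to 4 for lactate against naïve (8113 to 9335 genes). The log2 fold changes of lactate against media then ran from -0.61 to -0.42 for Atp1b1, 0.12 to 0.30 for Atp1b3, 0.083 to 0.34 for Slc4a7, -0.42 to -0.30 for Slc4a2 and 0.76 to 0.93 for Slc12a2, and for lactate against naïve Slc4a7 ran from 0.32 to 0.64. Slc12a2 in lactate against naïve turned to 0.060 without naïve replicates 1 and 2.

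Within the high run of library numbers, with 1 naïve and 1 media library and no test, Slc4a7 reversed in media against naïve (-0.67) and lactate against naïve (-0.031) and was 0.64 in lactate against media. The other values that moved were those of media against naïve for Atp1b1 (-1.29), Slc4a2 (-1.23) and Slc12a2 (-0.81), and those of lactate against naïve for Atp1b1 (-1.78, and -2.83 in the low run), Slc4a2 (-1.66) and Slc12a2 (-0.0089). The cause was not tested. Of 100 genes simulated with a log2 fold change of 1, 68 were recovered, and smaller changes were not simulated.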
